A study of Mus musculus with 8 samples.

Results

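The VPS (vacuolar protein sorting) and CHMP (charged multivesicular body protein) genes encode the subunits of the complexes that sort membrane proteins on endosomes. Their signals come from mouse fetal small intestine taken at 18.5 days post coitum (dpc), in 4 Plagl2 knockout and 4 wild-type samples with 1 Affymetrix array per sample. The product of Plagl2 is a PLAG family transcription factor with zinc fingers, and the labels name the genotype, the tissue and the age but no strain, sex, litter or description of the deleted part of the gene. The members are all probe sets listed with a single gene symbol that begins with Vps or Chmp and a number, which gave 106 of the 45101 probe sets on the array. Of these, 85 probe sets stand for 35 VPS genes and 21 for 10 CHMP genes. No signal value entered that selection, but the family was put forward with results of the same comparison known, so its counts are given as a description. A further 4 probe sets listed with several symbols, of which 1 is Vps25 or Chmp1b, were left out.

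Membrane proteins taken up from the cell surface reach early endosomes, where they are either returned or sent on to lysosomes. Retromer and retriever return cargo to the surface or the Golgi apparatus, the tethering complexes HOPS, CORVET, GARP and EARP bring carriers and endosomes to their target membranes, and the ESCRT complexes fold ubiquitin-tagged cargo into vesicles inside the endosome that lysosomes then digest. Enterocytes of the late fetal and neonatal gut are known for a large apical endocytic and lysosomal system that takes up and digests protein from the lumen.

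The knockout samples lacked Plagl2 signal. Probe set 1417517_at of Plagl2 gave signals of 3, 6, 5 and 11 in knockout replicates 1 to 4, against 824, 817, 697 and 796 in wild-type replicates 1 to 4 (log2 fold change -5.18, adjusted p = 2.42e-09). Array medians were 36 to 42, and log2 signals of arrays correlated at 0.95 to 0.974 inside each genotype and at 0.926 to 0.948 across them. Wild-type replicate 3 stood apart from the other wild-types on the principal component that separated the genotypes, at -21.94 against -44.7 to -43.29, with knockouts at 35.68 to 40.72. On the next component knockout replicates 3 and 4 lay at opposite ends (44.29 and -39.04). Xist, the RNA that coats the inactive X chromosome, gave 1828 and 1410 in knockout replicates 2 and 3 and at most 47 in the other 6 arrays, so the sexes were not spread evenly over the groups. Control probe sets at the 3' and 5' ends of actin and Gapdh give a measure of RNA quality, and the mean log2 of their 3'/5' ratio was 0.048 ± 0.035 in knockouts and -0.016 ± 0.029 in wild-types (SD, n = 4, exact permutation p = 0.0286, the smallest that 4 against 4 allows). Taken alone, actin had 0.434 in knockouts and 0.388 in wild-types (exact permutation p = 0.286). Gapdh alone had -0.337 in knockouts and -0.419 in wild-types (exact permutation p = 0.0857). Markers of the cell types that whole intestine holds were summed per array. Those of fetal enterocytes gave 56479 to 69504 in knockouts and 54541 to 69150 in wild-types, with 0 of 7 markers called. Most of that sum came from Fabp1, Fabp2, Apoa1 and Apoa4. The dimmer Apob, Lct and Alpi had log2 fold changes of -0.297, -0.396 and 0.155. Epithelial markers summed to 19368 to 25401 in knockouts and 18617 to 21516 in wild-types (2 of 8 higher, 2 lower). The higher were Krt8 and Krt19 (log2 fold changes 0.515 and 0.698) and the lower Krt18 and Cdx1 (-1.018 and -1.01). Smooth muscle and mesenchyme markers summed to 15035 to 23274 in knockouts and 12481 to 19180 in wild-types (0 of 8 called). The sums of these lists overlapped between the genotypes, while those of goblet cells, enteroendocrine cells and leukocytes did not. Goblet cell markers summed to 7737 to 9041 in knockouts and 3543 to 6133 in wild-types (3 of 4 higher). Enteroendocrine markers summed to 781 to 1177 in knockouts and 1619 to 1892 in wild-types (4 of 5 lower). Leukocyte markers summed to 1055 to 1457 in knockouts and 3392 to 4926 in wild-types, of which 1 of 5, Csf1r, was lower. Csf1r alone gave 628 to 858 in knockouts and 2874 to 4306 in wild-types, most of the wild-type sum. Signals of Ptprc, Cd68, Lyz2 and Cd52 overlapped between genotypes and were not called (log2 fold changes -0.44, -0.34, 0.28 and -0.32). Endothelial, neuronal and glial, erythroid and pancreatic markers had 0 calls, and no marker of any list was at 0 on every array. Liver markers had 2 lower, Ttr and Cps1, while Alb was not called (adjusted p = 0.411). Alb gave 656, 4, 32 and 4646 in knockout replicates 1 to 4, against 15, 22, 122 and 75 in wild-types. Knockout replicates 1 and 4 also held the highest signals of Slc4a1, an erythroid marker (177 and 393). In whole intestine, fewer cells of a type and less RNA per cell cannot be told apart, and the part of these marker and quality differences in the results that follow was not tested, except where a fit with a covariate is given. The RNA extraction notes name wild-type intestine for all 8 arrays, whereas the titles, source names and design list 4 of them as knockouts.

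All 4 retromer genes, both retriever genes with a VPS symbol, 3 of 5 GARP or EARP genes and 2 of 7 HOPS or CORVET genes fell in the knockout. Of 19 ESCRT genes, 3 rose and 0 fell. A probe set was called where the linear model of all probe sets (limma, on log2 of signal plus 16) gave a Benjamini-Hochberg adjusted p under 0.05, and all fold changes, knockout over wild-type, are on that log2 scale. Of the 106 members, 87 were bright enough for the test, and 15 of these were called as lower, 4 as higher and 68 not at all. Over all 27022 probe sets tested, 6.7% were called as lower and 5.28% as higher, a background that is printed for scale and from which nothing is read, since the comparison was known when the family was put forward. By gene, 11 of 44 were called as lower, 3 as higher and 30 in neither direction, against 9.59% lower and 7.56% higher over the 12838 genes tested, and no gene had probe sets called both ways. The median log2 fold change was -0.14 over the tested members and 0.03 over all probe sets tested. Of 71 tested VPS probe sets 15 were called as lower and 1 as higher (median -0.21), and of 16 tested CHMP probe sets 0 were lower and 3 higher (median 0.09). Signals of knockouts and wild-types did not overlap in 20 tested members that were lower and 4 that were higher in knockouts, against 9.26% and 7.7% of all probe sets tested. The members just inside the threshold were Chmp1b (1418817_at, adjusted p = 0.0422) and Vps37b (0.0434), and those just outside were Vps37c (1437615_s_at, 0.074) and Vps29 (1417659_at, 0.0774).

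**Figure D1:**
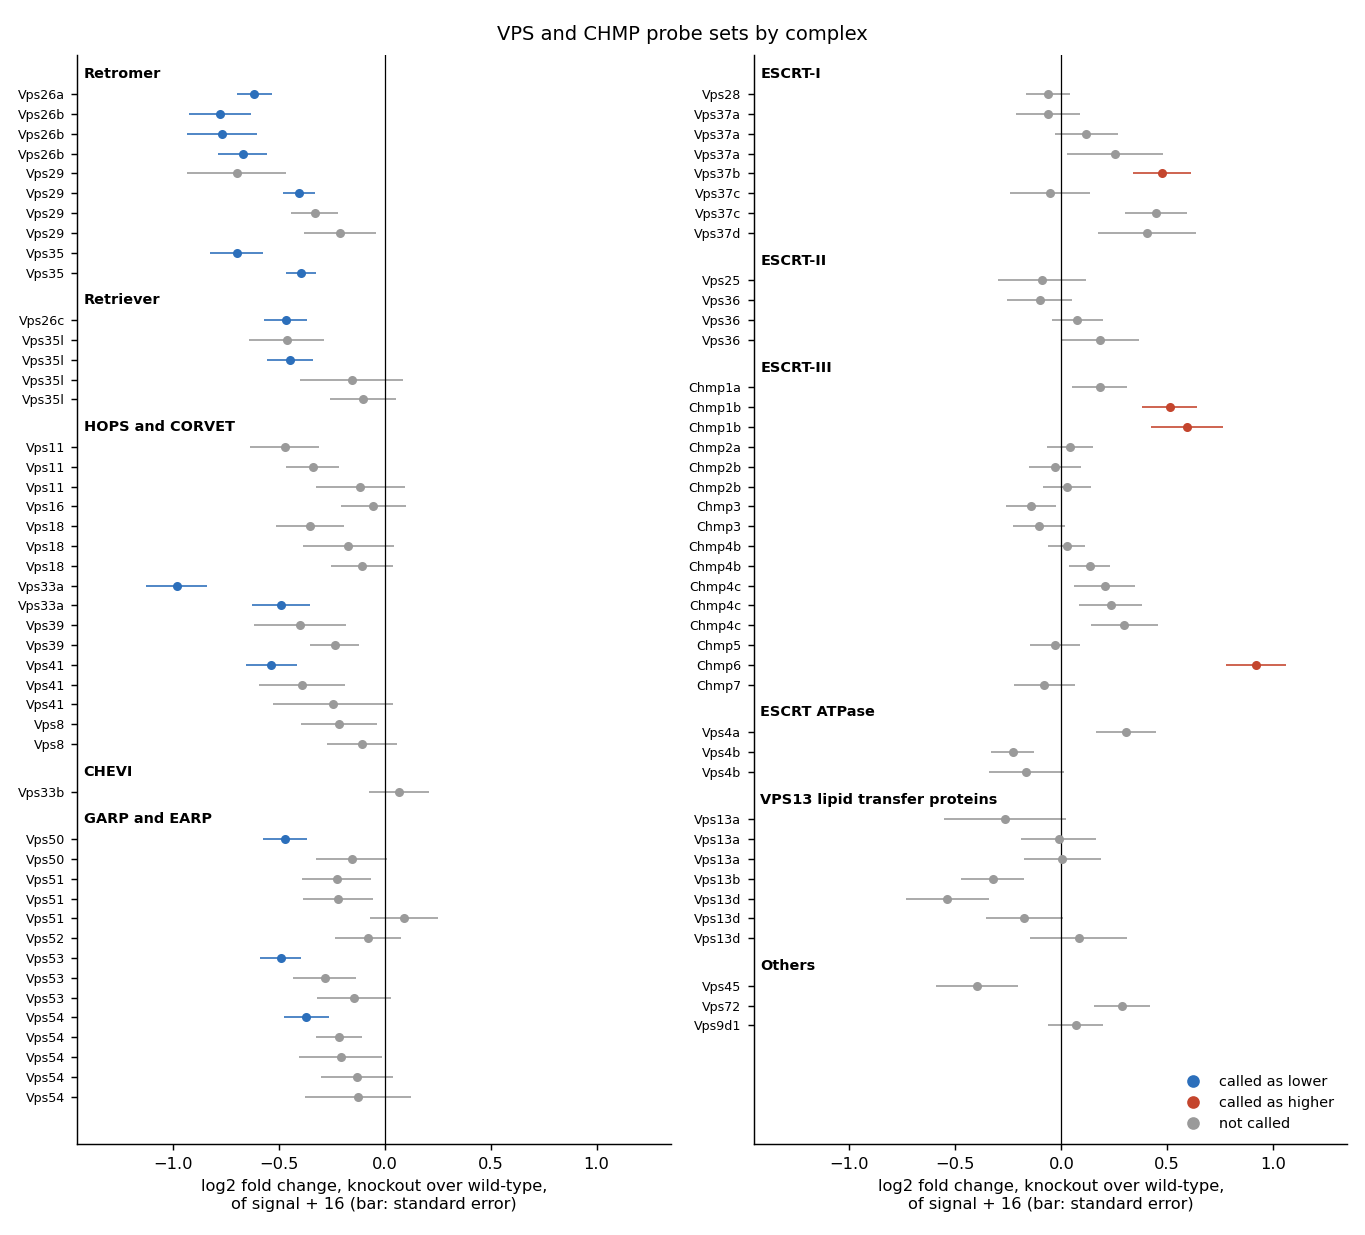
Log2 fold change (knockout over wild-type, of signal plus 16, horizontal axis) of the 87 tested VPS and CHMP probe sets, 1 row each, grouped by complex, with the standard error as a bar and the colour giving the call. All 10 retromer, 5 retriever and 16 HOPS and CORVET probe sets lie left of 0, while the 16 ESCRT-III probe sets lie on both sides with 3 called as higher.

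The retromer trimer fell in each of its subunits. All 10 tested probe sets of its 4 genes had a negative log2 fold change (median -0.64), and 7 of them, with at least 1 for each gene, were called as lower. Vps26a, an arrestin-like subunit that binds sorting nexins and cargo, gave signals of 669, 728, 697 and 695 in knockout replicates 1 to 4, against 1044, 1036, 1087 and 1139 in wild-type replicates 1 to 4. The 4 knockout values lay close together, and all were below every wild-type value. The log2 fold change of Vps26a was -0.61 ± 0.082 (SE, adjusted p = 0.000388), and its mean signal in knockouts was 64.8% of the wild-type mean.

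The promoter of Vps26a is shown because it held matches to CLEAR and to the stricter PLAG-type letters given below. Those of Vps33a and Vps16 are shown as the other members with a CLEAR match. CLEAR is the element bound by TFEB, the transcription factor of lysosomal genes, and was searched as CACGTG with GT before it and AC after it. PLAG factors bind a GC-rich core followed by a G cluster, searched as GGGGCC, then 7 bases of any kind, then GGG. The sequences are bases upstream of the annotated start in RefSeq, mouse build GRCm38.p6, written 5′ to 3′ on the strand of the gene, with CLEAR matches and the 2 PLAG-type matches of Vps26a in capitals. Vps26a lies at chr10:62486806-62487055 (minus strand, 250 bases before the start), Vps33a at chr5:123573016-123573115 (minus strand, 100 bases) and Vps16 at chr2:130424220-130424319 (plus strand, 100 bases).
Vps26a: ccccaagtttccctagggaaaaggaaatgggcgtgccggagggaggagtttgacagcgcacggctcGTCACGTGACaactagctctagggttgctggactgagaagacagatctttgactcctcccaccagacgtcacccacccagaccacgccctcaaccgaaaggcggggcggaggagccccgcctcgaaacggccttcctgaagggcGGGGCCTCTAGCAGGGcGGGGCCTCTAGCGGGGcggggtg
Vps33a: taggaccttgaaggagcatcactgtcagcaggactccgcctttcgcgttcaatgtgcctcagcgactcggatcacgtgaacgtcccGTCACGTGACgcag
Vps16: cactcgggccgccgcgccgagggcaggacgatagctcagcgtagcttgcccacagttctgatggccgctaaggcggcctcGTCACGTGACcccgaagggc
The CLEAR match printed lay 184 to 175 bases before the start in Vps26a, 14 to 5 in Vps33a and 20 to 11 in Vps16. Vps26a has a second annotated start, with another CLEAR match 153 to 144 bases before it that lies outside the stretch printed. Both strands were searched from 250 bases before to 50 after the start, and 28 of the 45 member genes had such a window, among them 9 of the 11 called as lower and 0 of the 3 called as higher. CLEAR was found in 3 of those 28 genes, and in 0.37% of all 27025 genes with a window. Its core CACGTG, which every CLEAR match contains, was in 4 of the 28 genes, the other being Vps50, and in 8.09% of all genes. The PLAG-type letters were found in 2 of the 28 genes, Vps26a and Chmp5, and in 2.22% of all genes. A looser form, GGGGC or GAGGC, then 6 to 8 bases, then GGG, was in 11 of the 28 genes and in 24.7% of all genes. Vps33a was among these 11, with a match 134 to 121 bases before the start that lies outside the stretch printed. Vps26a and Vps33a were called as lower, while Vps16 (-0.05) and Chmp5 (-0.03) were not called. A match is a run of letters and not a binding site.

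The paralogue Vps26b, which takes the place of Vps26a in a share of retromer, was lower by all 3 of its probe sets. Its probe set 1428247_at gave 198, 244, 184 and 220 in knockouts, against 365, 362, 312 and 340 in wild-types (-0.67 ± 0.12 SE, adjusted p = 0.00258). Signals of 1453762_at were 121, 115, 99 and 80 in knockouts, against 218, 195, 172 and 168 in wild-types (-0.78 ± 0.15, adjusted p = 0.00432). For neither did the groups overlap. The third, 1428246_at, gave 238, 300, 210 and 214 in knockouts, against 534, 476, 329 and 358 in wild-types (-0.77 ± 0.17, adjusted p = 0.0101), and here the lowest wild-type array lay close to the highest knockout. The mean of Vps26b in knockouts was 55.1% to 61.3% of that in wild-types over the 3 probe sets.

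Vps35, the scaffold that holds the trimer together, fell by both of its probe sets. The brighter, 1415783_at, gave 2146, 2250, 2388 and 2159 in knockouts, against 3027, 2975, 2934 and 2847 in wild-types (-0.40 ± 0.071 SE, adjusted p = 0.0031). The other, 1415784_at, gave 246, 344, 348 and 366 in knockouts, against 519, 536, 568 and 511 in wild-types (-0.70 ± 0.13, adjusted p = 0.00334). Knockout replicate 1 was the low array of that probe set, and every knockout was still below every wild-type. Vps29, the subunit shared by retromer and retriever, gave 1992, 2016, 2205 and 1969 in knockouts, against 2868, 2618, 2783 and 2576 in wild-types by 1417660_s_at (-0.40 ± 0.076, adjusted p = 0.0041). The suffix of that probe set means that it can match more than 1 transcript. Its other tested probe sets had negative log2 fold changes and were not called, at -0.33 (1417659_at, adjusted p = 0.0774), -0.70 (1435565_at, 0.0781) and -0.21 (1440641_at, 0.489). Without knockout replicate 4, 1435565_at was called (-0.83, adjusted p = 0.0453). Each of the 7 retromer calls held with any 1 array left out, while 3 ended once the 3'/5' ratio entered the fit. In that fit Vps29 had -0.38 ± 0.12 (adjusted p = 0.113) and Vps35 had -0.38 ± 0.11 (0.0892) and -0.40 ± 0.16 (0.21).

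Retriever is the retromer-like complex that recycles another set of cargo. Both of its genes with a VPS symbol fell. Vps26c, the counterpart of Vps26, gave 425, 521, 471 and 434 in knockouts, against 628, 613, 622 and 717 in wild-types (1415745_a_at, -0.47 ± 0.10 SE, adjusted p = 0.0103). Vps35l, its scaffold, gave 354, 337, 333 and 385 in knockouts, against 563, 488, 448 and 449 in wild-types (1426694_at, -0.45 ± 0.11, adjusted p = 0.018). In both cases the groups did not overlap. The other 3 tested probe sets of Vps35l had log2 fold changes of -0.46 to -0.10 and were not called. The call of Vps35l ended without knockout replicate 2 or wild-type replicate 1 or 2 (adjusted p = 0.0547 to 0.0684), and the mean over all its probe sets gave -0.13 (adjusted p = 0.516).

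**Figure D2:**
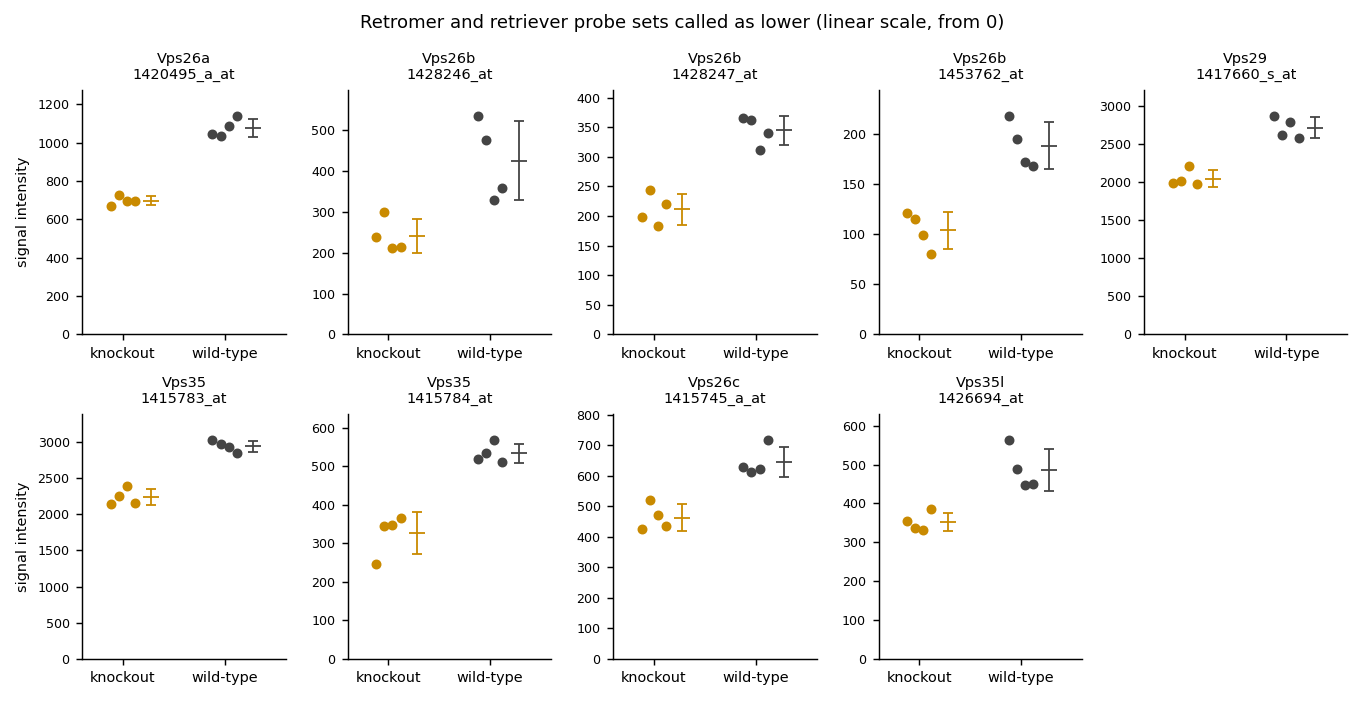
Signal intensity (vertical axis, linear, from 0) of the retromer and retriever probe sets called as lower, with 1 point per array, knockout left of wild-type, and the mean ± SD beside the points. In each of the 9 panels the 4 knockout points lie below the 4 wild-type points, with Vps26b 1428246_at showing the widest wild-type spread of its 3 probe sets.

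HOPS, which tethers late endosomes and autophagosomes to lysosomes, and CORVET, its early endosome counterpart, share a core of 4 subunits. Of the 7 genes 2 fell, Vps33a of the core and the HOPS subunit Vps41, while all 16 tested probe sets had a negative log2 fold change (median -0.29). Vps33a, which assembles the membrane fusion proteins called SNAREs, gave 61, 69, 45 and 61 in knockouts, against 140, 121, 128 and 136 in wild-types by 1453742_at. Its knockout mean was 45% of the wild-type mean, the lowest share among the tested members (-0.98 ± 0.14 SE, adjusted p = 0.000701). The second probe set of Vps33a, 1434816_at, gave 114, 139, 94 and 132 in knockouts, against 158, 183, 180 and 171 in wild-types (-0.49 ± 0.14, adjusted p = 0.0367). It did not overlap either, but its call ended without 6 of the 8 arrays in turn (adjusted p = 0.0566 to 0.104). The CLEAR match given above is near the start of this gene, as is that of Vps16, which was not called (-0.05). A role of the match was not tested.

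Vps41, which binds HOPS to late endosomal and carrier membranes, gave 392, 413, 394 and 468 in knockouts, against 667, 631, 487 and 672 in wild-types (1433666_s_at, -0.53 ± 0.12 SE, adjusted p = 0.0125). Wild-type replicate 3 was the low wild-type array and lay near the highest knockout. Without wild-type replicate 1 its adjusted p was 0.0514, and its other probe sets gave -0.39 (1433665_at) and -0.24 (1437901_a_at) with no call. The called probe set is of the kind that can match more than 1 transcript, and the mean over all Vps41 probe sets was not called (-0.39, adjusted p = 0.166). The genes not called were the core subunits Vps11 (-0.47 to -0.11), Vps18 (-0.35 to -0.11) and Vps16 (-0.05), the HOPS subunit Vps39 (-0.40 and -0.24) and the CORVET subunit Vps8 (-0.22 and -0.11). Among these, probe set 1428109_at of Vps11 gave 145 to 161 in knockouts and 172 to 228 in wild-types without overlap (-0.34 ± 0.13, adjusted p = 0.113). Probe set 1428110_x_at of Vps11 was called as lower without knockout replicate 3 (-0.61, adjusted p = 0.017). Likewise 1451720_at of Vps39 gave 114 to 125 in knockouts and 130 to 157 in wild-types (-0.24 ± 0.12, adjusted p = 0.227). Vps33b, the homologue of Vps33a that works with Vipas39 in the separate complex CHEVI, gave 174, 129, 186 and 139 in knockouts, against 132, 151, 169 and 141 in wild-types (0.07 ± 0.14, adjusted p = 0.817). Its groups overlapped through most of their range.

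GARP tethers carriers that come from endosomes to the trans-Golgi network, and EARP, which holds Vps50 in place of Vps54, acts at recycling endosomes. Of their 5 genes 3 fell, and 13 of 14 tested probe sets had a negative log2 fold change (median -0.21). Vps53, in both complexes, gave 348, 366, 380 and 330 in knockouts, against 554, 485, 488 and 499 in wild-types (1416989_at, -0.49 ± 0.097 SE, adjusted p = 0.00581). Vps50 gave 229, 224, 210 and 231 in knockouts, against 284, 323, 319 and 338 in wild-types (1432094_a_at, -0.47 ± 0.10, adjusted p = 0.0107). Vps54 gave 511, 507, 533 and 440 in knockouts, against 621, 701, 570 and 701 in wild-types (1418479_at, -0.37 ± 0.11, adjusted p = 0.0415). None of the 3 overlapped between genotypes. The call of Vps54 ended without 6 of the 8 arrays in turn (adjusted p = 0.0822 to 0.128). With Xist in the fit, Vps50 (adjusted p = 0.0762) and Vps54 (0.084) lost the call as well, which left 1 called probe set of these complexes, that of Vps53. With the 3'/5' ratio 0 were called, and over the mean of its probe sets Vps50 had an adjusted p of 0.0628 and Vps53 of 0.0789. Other tested probe sets of these genes were not called, with -0.28 and -0.14 for Vps53, -0.15 for Vps50 and -0.21 to -0.13 for Vps54. The shared subunits Vps51 (-0.23, -0.22 and 0.09) and Vps52 (-0.08) were not called.

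The ESCRT genes, which make the vesicles inside the endosome, gave no lower call. Of 31 tested probe sets of 19 genes, 4 were called as higher and 0 as lower (median 0.08), and 3 genes rose. Chmp6, the ESCRT-III subunit that links ESCRT-II to the growing filament, gave 627, 760, 686 and 536 in knockouts, against 334, 340, 267 and 413 in wild-types (1433684_at). Its mean in knockouts was 192.7% of that in wild-types (log2 fold change 0.92 ± 0.14 SE, adjusted p = 0.00119), and the groups did not overlap. Chmp1b, a late-acting ESCRT-III subunit that recruits enzymes which cut microtubules and disassemble the filament, rose by both of its probe sets. They gave 524, 544, 851 and 484 in knockouts, against 381, 429, 312 and 422 in wild-types (1418817_at, 0.59 ± 0.17, adjusted p = 0.0422). By 1418816_at they gave 493, 528, 719 and 508 in knockouts, against 386, 391, 346 and 420 in wild-types (0.51 ± 0.13, adjusted p = 0.0227). Knockout replicate 3, which had Xist signal, was the high array of both. With the Xist signal of each array as a covariate, the log2 fold changes of Chmp1b were 0.39 and 0.36 (adjusted p = 0.269 and 0.178) and that of Chmp6 was 0.75 (adjusted p = 0.0193). Without 1 array in turn the call of 1418817_at ended for 7 of 8 arrays (adjusted p = 0.0559 to 0.102) and that of 1418816_at for 3 of 8 (0.0506 to 0.0623).

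In ESCRT-I, the cargo-binding complex, Vps37b was the 1 gene of 5 that was called. It gave 87, 103, 102 and 88 in knockouts, against 69, 57, 71 and 59 in wild-types (1424380_at, 0.47 ± 0.14 SE, adjusted p = 0.0434). The groups did not overlap, but the call ended without 7 of the 8 arrays in turn (adjusted p = 0.0572 to 0.126). The alternative Vps37 subunits Vps37a (-0.06 to 0.25), Vps37c (-0.05 and 0.45) and Vps37d (0.41) and the core subunit Vps28 (-0.06) were not called. The 2 probe sets of Vps37c, both of the kind that can match more than 1 transcript, differed in sign, and 1437615_s_at was called as higher without wild-type replicate 3 (0.58, adjusted p = 0.00955). In ESCRT-II, which bridges ESCRT-I and ESCRT-III, neither gene was called. Vps36 gave 103, 81, 54 and 75 in knockouts, against 63, 84, 57 and 61 in wild-types by the probe set with the smallest p (1424417_at, 0.18 ± 0.18, adjusted p = 0.588), and Vps25 had -0.09. Those values overlapped.

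The other 8 ESCRT-III genes were not called. Their main filament subunits Chmp4b (0.02 and 0.13), Chmp2a (0.04), Chmp2b (-0.03 and 0.03) and Chmp3 (-0.14 and -0.11) had log2 fold changes of either sign, and all 3 tested probe sets of Chmp4c were positive (0.20 to 0.30). The accessory subunits were Chmp1a (0.18), Chmp5 (-0.03) and Chmp7 (-0.08). Chmp4b, whose standard error was 0.088 on its brighter probe set, gave 1873, 2168, 2299 and 2106 in knockouts, against 2014, 2129, 1909 and 2243 in wild-types. These ranges overlapped almost completely. The AAA ATPases Vps4a and Vps4b, which pull the filament apart, were not called either. Vps4b gave 1854, 1875, 2552 and 2187 in knockouts, against 2407, 2498, 2474 and 2479 in wild-types (1417007_a_at, -0.23 ± 0.10 SE, adjusted p = 0.182), so that knockout replicate 3 alone lay above the wild-types. Without that array Vps4b was called as lower (-0.32, adjusted p = 0.0263). For Vps4a the log2 fold change was 0.31 (adjusted p = 0.202).

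**Figure D3:**
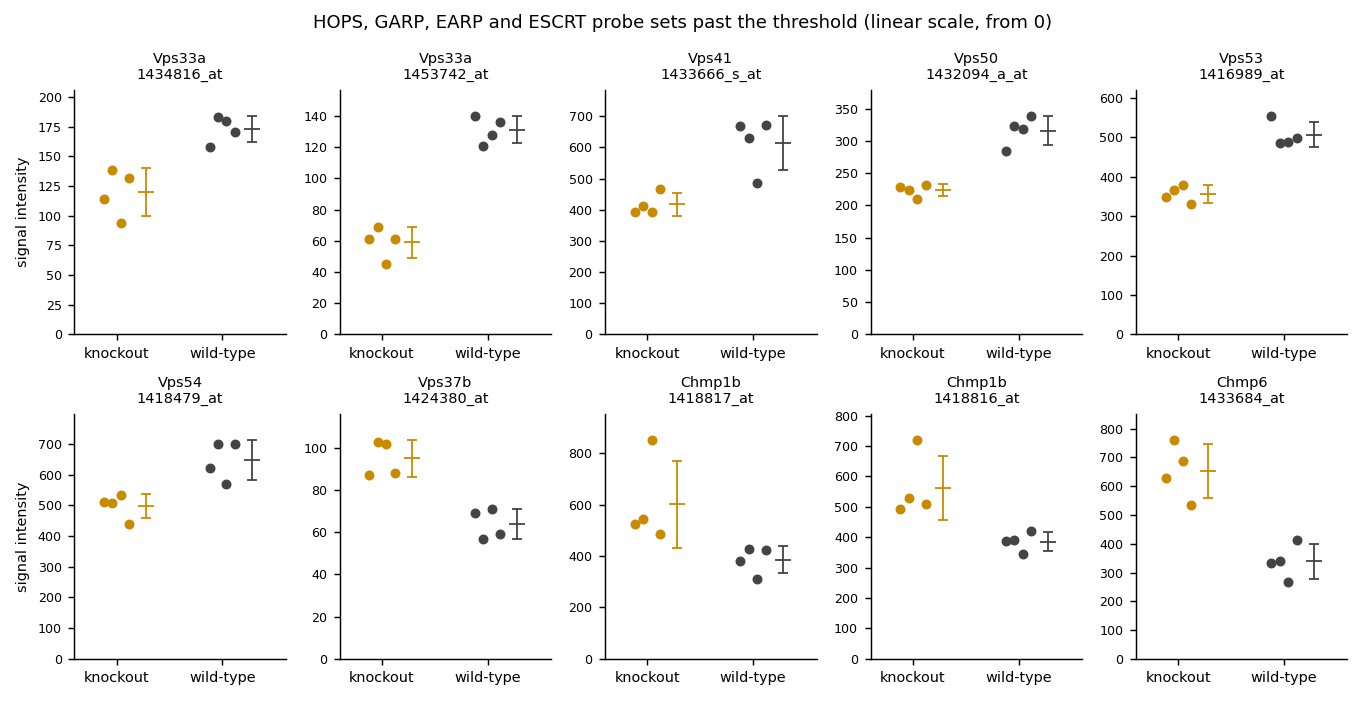
Signal intensity (vertical axis, linear, from 0) of the HOPS, GARP, EARP and ESCRT probe sets past the threshold, with 1 point per array, knockout left of wild-type, and the mean ± SD beside the points. The knockout points lie below the wild-type points for Vps33a, Vps41, Vps50, Vps53 and Vps54 and above them for Vps37b, Chmp1b and Chmp6, with knockout replicate 3 (851 and 719) highest in both Chmp1b panels.

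The remaining VPS genes are not subunits of these complexes, and none was called. The VPS13 proteins carry lipid between membranes at contact sites. Vps13d gave 177, 171, 269 and 117 in knockouts, against 226, 272, 265 and 294 in wild-types (1439187_at, -0.54 ± 0.20 SE, adjusted p = 0.104), with knockout replicate 3 inside the wild-type range. Without that array Vps13d was called as lower (-0.73, adjusted p = 0.0124). Its other tested probe sets gave -0.17 and 0.08. Vps13b had -0.32 (adjusted p = 0.194), Vps13a -0.27 to 0.01, and Vps13c was too dim for the test, with signals of 3 to 36. Vps72, a chromatin protein, gave 209, 200, 168 and 227 in knockouts, against 188, 152, 166 and 141 in wild-types (0.29 ± 0.13, adjusted p = 0.196). Vps45, which works with syntaxins on endosomes, had -0.40 (adjusted p = 0.227), and Vps9d1 had 0.07. In all, 19 probe sets of the family were too dim for the test.

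Partners of these complexes that carry other symbols were taken from a list of 48 genes, of which 47 had a probe set. Of these, 13 were called as lower, 0 as higher and 34 not at all, against 9.59% lower and 7.56% higher over all genes tested. The list was chosen with earlier results of these data known, so the partner counts here and below are a description. Among the 12 retromer partners 8 fell (15 of 29 tested probe sets, median -0.47, against 6.7% of all probe sets tested). Snx1 (-0.98 ± 0.10 SE), Snx2 (-0.77 ± 0.075), Snx5 (-0.90 to -0.53 by 3 of its 5 tested probe sets), Snx6 (-0.39 by 1 of 4) and Snx3 (-0.44) are the sorting nexins that bend the membrane or bring retromer to it. Snx1 gave 444, 477, 459 and 469 in knockouts, against 968, 1045, 773 and 941 in wild-types, without overlap (adjusted p = 7.67e-05). Snx5 was not called by its brightest probe set, 1448791_at (-0.27, adjusted p = 0.0538), or by 1437074_at (-0.0009, 0.998), nor Snx6 by its other 3 (adjusted p = 0.114 to 0.416). The call of Snx6 (adjusted p = 0.048) ended without 6 of the 8 arrays in turn (0.0774 to 0.14). It came from 1429497_s_at, a probe set of the kind that can match more than 1 transcript.

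The WASH complex, which builds actin on retromer endosomes, fell in 3 of its 5 subunits. Washc4 was lower by 4 probe sets (-0.97 to -0.76), Washc2 by 3 of 4 (-0.80 to -0.64) and Washc5 by 1 (-0.69 ± 0.089 SE, adjusted p = 0.000312). By 1439450_x_at, Washc4 gave 214, 205, 205 and 220 in knockouts, against 451, 412, 431 and 416 in wild-types (adjusted p = 4.41e-05). No knockout value lay above 220 and no wild-type value below 412. Washc1, Washc3, Snx27 and Tbc1d5 were not called. Of the 29 tested probe sets of retromer partners, 25 had a negative and 4 a positive log2 fold change. Among the positive were both tested probe sets of Tbc1d5, at 0.317 (1443896_at, adjusted p = 0.129, without overlap) and 0.465 (1430808_at, adjusted p = 0.143). Of the fusion partners of HOPS and GARP, 3 of 13 fell. Stx7, a SNARE of late endosomes, gave 791, 938, 937 and 806 in knockouts, against 1897, 2030, 1455 and 1920 in wild-types (-1.05 ± 0.12, adjusted p = 9.53e-05). Stx8, which pairs with it, had -0.55 (adjusted p = 0.0228), and Rab7, the GTPase that recruits HOPS and retromer, had -0.34 (adjusted p = 0.0263). The brighter tested probe set of each was not called, with -0.15 for Stx8 (1418089_at, adjusted p = 0.532) and -0.18 for Rab7 (1415734_at, 0.298). The call of Stx8 ended without 4 of the 8 arrays in turn (adjusted p = 0.0534 to 0.0796) and that of Rab7 without 6 (0.0561 to 0.0852).

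Uvrag, a subunit of the lipid kinase complex of endosomes, fell as well (-0.53 ± 0.12 SE, adjusted p = 0.0102). Vipas39, the partner of Vps33b, was called at -0.32 (adjusted p = 0.0496) by 1 of its 2 tested probe sets, the other having -0.17 (0.409), and the call ended without 6 of the 8 arrays in turn (0.0689 to 0.143). The 15 partner genes of ESCRT-0, ESCRT-I, ESCRT-II and ESCRT-III were not called in either direction. Log2 fold changes were negative in 7 of 9 tested probe sets of ESCRT-0 partners and 12 of 16 of ESCRT-III partners (medians -0.11 and -0.14). In ESCRT-I partners 4 of 9 were negative (median 0.12). Nearest the threshold on the lower side were Stam2 (1416976_at, -0.35, adjusted p = 0.0738) and Pdcd6ip (1449674_s_at, -0.28, adjusted p = 0.0756). Tsg101, the cargo-binding core of ESCRT-I, had 0.17 (adjusted p = 0.35). Snf8, the third subunit of ESCRT-II, gave 886, 768, 857 and 715 in knockouts, against 523, 529, 687 and 749 in wild-types (0.38 ± 0.13, adjusted p = 0.0886), and its groups overlapped.

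The Xist signal and the mean 3'/5' ratio of the arrays were entered in turn as covariates. High Xist signal occurred in knockouts only. The mean ratio differed between the genotypes, while neither control alone had an exact permutation p under 0.05. With the Xist signal, 12 probe sets of the family were lower and 1, Chmp6, higher, against 4.7% and 2.79% of all probe sets tested. These included Vps11 (1428110_x_at, -0.75, adjusted p = 0.0158) and Vps45 (-0.73, adjusted p = 0.0437), which were not called with genotype alone. Lower calls lost in that fit were Vps35l (adjusted p = 0.132), Vps41 (0.0846), Vps50 (0.0762), Vps54 (0.084) and Vps33a 1434816_at (0.15). With the 3'/5' ratio, 5 were lower and 0 higher, against 3.4% and 1.74%. These 5 were Vps26a (-0.56 ± 0.13 SE, adjusted p = 0.0311), the 3 probe sets of Vps26b (-1.10, -0.73 and -1.09, adjusted p = 0.0187, 0.0463 and 0.00868) and Vps33a 1453742_at (-1.05 ± 0.22, adjusted p = 0.0222). The 19 members called with genotype alone had the same direction in both fits. Of the 14 that lost the call with the 3'/5' ratio, the log2 fold change was larger in size in 6 and smaller in 8, and the standard error was larger in all 14 (0.11 to 0.27, against 0.071 to 0.17 without the ratio). The size fell by over 0.1 in 2 of them, Vps35 1415784_at (-0.40 with the ratio, -0.70 without) and Chmp6 (0.75 with, 0.92 without). In the 6 arrays without Xist signal 13 were lower and 1 higher, against 4.95% and 2.99%, with Vps11, Vps45 and Vps13d among the lower. With wild-type replicate 3 and knockout replicate 4 both left out, 15 were lower and 5 higher, against 8.39% and 7.63%, the added one being Vps37c (0.55, adjusted p = 0.0158). Knockout replicate 3, which lay opposite knockout replicate 4 on the second principal component, stayed in that fit.

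**Figure D4:**
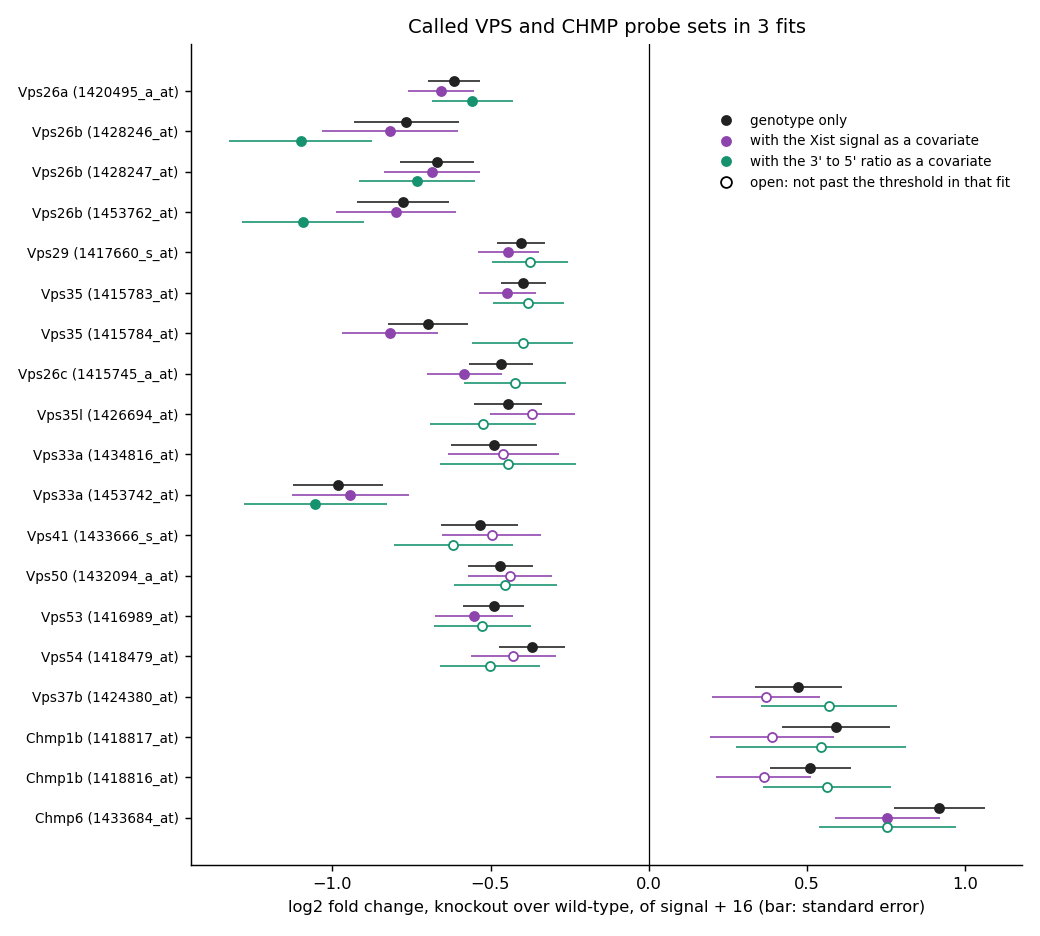
Log2 fold change (knockout over wild-type, of signal plus 16, horizontal axis) and standard error (bar) of the 19 called VPS and CHMP probe sets with genotype alone, with the Xist signal and with the 3'/5' ratio as a covariate; open points did not pass the threshold in that fit. Every point keeps its side of 0, and with the 3'/5' ratio Vps26a, the 3 Vps26b probe sets and Vps33a 1453742_at keep their call.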

How the data were processed

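RNA of 4 Plagl2 knockout and 4 wild-type small intestines was hybridised to 1 Affymetrix MOE430 2.0 array each. The deposited table holds 1 signal intensity per probe set and array, on a linear scale, which the authors had scaled to a trimmed mean of about 150 per array, as the values show. The signal algorithm is not given in the sources used here. Symbols come from the platform annotation, and all 106 members were found in the RefSeq gene table by Entrez ID.

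Groups were taken from titles and source names. Intensities were transformed as log2(signal + 16). The 64 control probe sets and the 40% of the others with the lowest mean (under about 23) were left out. The 27022 remaining entered a limma 3.58.1 fit (R 4.3.3, lmFit and trended eBayes) on genotype alone. A call is a two-sided Benjamini-Hochberg adjusted p under 0.05 over all of them. A gene was called where at least 1 tested probe set was. Low signals make fold changes smaller through the added 16, and signals of different probe sets were compared only to name the brightest of a gene. Errors of fold changes are standard errors of the fit. Litters are not named in the labels, so a p-value reflects only how far these samples spread, and the number of arrays limits the precision.

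The members, complexes and lists were chosen with earlier results of these data known. The text names every member gene, gives all arrays for called members and for the member with the smallest p of a complex without a call, and names called partners. Chmp4b, Vps11, Vps39, Snf8, Tsg101, the markers named singly, uncalled probe sets of called partners and the partners named as not called were chosen after their values were seen. Alternatives were other filters (none or 60%), quantile normalization, offsets of 1 and 64, array weights, a replicate block, models with no intensity trend or no moderation, gene means, the covariates and subsets named in the report, and each array left out in turn.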

Additional observations from a re-analysis of the deposited data

Results flagged for a closer look

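In 48 groups of 4 arrays (24 named member probe sets in each genotype), 2 held a single array far from the other 3, its gap to the nearest over the range of the group being above Dixon's 95% critical value. Chance gives about 1 in 20 such groups. Vps35 (1415784_at) gave 246 in knockout replicate 1 and 344 to 366 in the other knockouts (gap over range 0.843). Vps26c (1415745_a_at) gave 717 in wild-type replicate 4 and 613 to 628 in the other wild-types (0.846). Both probe sets were called as lower with any 1 array left out.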

How the results depend on the processing

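Over 22 alternatives, 8 of which left out 1 array each, the calls of Vps26a, of Vps26b (1428247_at and 1453762_at) and of Vps33a (1453742_at) were not lost. The 15 probe sets called as lower became 5 with the 3'/5' ratio as a covariate, and 11 to 17 with 1 array left out. The 4 called as higher became 2 with no filter, with no intensity trend and in an unmoderated linear model, 1 with the replicate block, with the Xist covariate, and with only the 6 arrays that lack Xist, 0 with the 3'/5' ratio, and 1 to 4 with 1 array left out. The 11 genes called as lower became 7 with the replicate block, 7 with gene means, 3 with the 3'/5' ratio, and 8 to 14 with 1 array left out. The 3 genes called as higher became 1 with the replicate block, the Xist signal or the arrays without it, 0 with the 3'/5' ratio, and 1 to 4 with 1 array left out. With the replicate block 10 probe sets were lower. The labels do not say whether the numbers pair the samples. Deviations of same-numbered arrays from their group means correlated at -0.011, -0.046, -0.274 and -0.12, which shows no shared shift but cannot settle the pairing. Among the 5 uncalled members refitted by name (Vps33b, Vps36, Vps4b, Vps13d and Vps72), the sign turned for Vps36 (1424417_at), at -0.21 with the 3'/5' ratio, and for Vps33b, at -0.013 without knockout replicate 3. With 1 array left out Vps33b was -0.013 to 0.15, and with wild-type replicate 3 and knockout replicate 4 both left out it was 0.17. The cause of these changes was not tested. With 4 arrays a group, standard errors of called members were 0.071 to 0.17, and dim probe sets are the least precise.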

Other observations

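The 4 probe sets that list a VPS or CHMP gene beside a second gene did not enter the counts. Those listed as Ramp2 and Vps25 gave 542, 569, 604 and 495 in knockouts, against 565, 559, 620 and 592 in wild-types (1421051_s_at, log2 fold change -0.08), and 657, 662, 584 and 555 in knockouts, against 592, 600, 584 and 618 in wild-types (1428621_a_at, 0.03). Those listed as Chmp1b and 2610002M06Rik gave 203, 212, 240 and 184 in knockouts, against 225, 222, 178 and 240 in wild-types (1419690_at, -0.04), and 159, 163, 163 and 149 in knockouts, against 148, 153, 144 and 129 in wild-types (1453078_at, 0.13). None of the 4 was called, and the 2 probe sets listed with Chmp1b alone were both higher. Of the probe sets too dim for the test, 1446320_at of Chmp4c gave 23, 25, 21 and 20 in knockouts, against 9, 5, 13 and 18 in wild-types, without overlap. This one was chosen after its values were seen.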
